A study of Mus musculus with 6 samples.

Results

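The translation initiation and elongation factors were the 64 protein-coding mouse genes whose symbols start with Eif1 to Eif6 or with Eef1 or Eef2, out of 53465 genes in the deposited count matrix. The 4 eIF2 alpha kinase genes, whose symbols start with Eif2ak, were left out of the members and are described with the related genes. The members were chosen by symbol alone and put into 11 groups by factor number. All but 1 of them, 63, had at least 1 read, and 59 passed the filter on low counts and entered the test among 13768 genes. The other 5 were Eef1a2, Eef1akmt3, Eif3j2, Eif4e1b and Eif4ebp3.

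Initiation factors bring the initiator tRNA, the small ribosomal subunit and the capped end of an mRNA together, scan to the start codon and join the large subunit. The rate is set mainly at the eIF2 step, where phosphorylated eIF2 alpha blocks its exchange factor eIF2B, and at the cap, where mTOR controls the binding proteins that hold eIF4E away from eIF4G. Elongation factors then deliver each charged tRNA (the eEF1 complex) and move the ribosome along by a codon (eEF2), and in brain tissue these proteins serve every cell type, with a neuron and muscle form of eEF1A beside the general one.

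The libraries were made from brain endothelial cells, the cells that line blood vessels, isolated from cortex; the mice were male, 8 to 12 weeks old. PTZ mice had been injected with pentylenetetrazol, a GABA-A receptor blocker that provokes seizures, and PBS mice with phosphate buffered saline. Mice of both groups carried tie2-Cre, ai9 and rpl22HA/HA: a Cre driven from an endothelial promoter that is also active in part of the blood lineage, a red fluorescent reporter, and an epitope tag on the ribosomal protein RPL22. Each group had 3 libraries, numbered 1, 2 and 4, of what the labels call total RNA. Dose and time after injection are not known here.

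The libraries held 11107481 to 15406967 reads counted in genes, and the members took 1.10% to 1.18% of them in each library. Whether the libraries are separate animals is not stated in the labels, so the p-values below measure the spread between libraries only. The 14 endothelial markers were all detected and summed to 18469.8, 31317 and 21108 CPM (reads relative to the TMM-scaled library total) in PTZ libraries 1, 2 and 4, against 19922, 26264 and 24258 CPM in PBS libraries 1, 2 and 4. All 9 pericyte and smooth muscle markers tested had positive fold changes and summed to 1074, 339 and 1015 CPM in the PTZ libraries, against 199, 293 and 564 CPM in the PBS libraries. The 6 fibroblast markers summed to 245, 84.0 and 261 CPM in the PTZ libraries and 81.7, 87.3 and 143 CPM in the PBS libraries, all with positive fold changes. The 10 microglia and macrophage markers summed to 1729.7, 2325 and 2698 CPM in the PTZ libraries and 3155, 2612 and 3019 CPM in the PBS libraries, with no positive fold change among them, and the 6 neutrophil markers to 100.2, 391 and 79.0 CPM in the PTZ libraries and 549, 507 and 209.8 CPM in the PBS libraries. The part of these markers in the values of the translation factors was not tested, and in bulk RNA fewer cells of a type and less RNA per cell cannot be told apart. In library PTZ 1, the counting assigned 9.34% of reads to no feature, against 2.99% to 5.19% in the other 5 libraries, so values are also given without it. Which feature was counted is not stated, so these reads may lie within or outside genes.

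No translation factor passed an adjusted p of 0.05 between PTZ and PBS. The count was 0 of 59 in edgeR's quasi-likelihood test, DESeq2 and limma-voom, beside 0.0% of all tested genes in edgeR; DESeq2 called 76 and limma-voom 1 of all genes. At an unadjusted p under 0.05, edgeR had 6 members, 1 higher in PTZ (Eif1) and 5 lower (Eef1akmt1, Eef1akmt2, Eif1a, Eif2b1 and Eif3m). DESeq2 and limma-voom each had 7, beside 7.96% and 8.2% of all genes. That 6 of 59 stands beside 7.21% of all genes tested, 3.83% higher and 3.38% lower. Leaving out PBS 1, PBS 4 or PTZ 1 brought the 6 members to 2, beside 5.04%, 4.64% and 5.93% of all genes. Leaving out PTZ 2 brought them to 10 of 61 tested, beside 11.1% of all genes. Without PBS 2, edgeR called 8 of all genes and no member at an adjusted p of 0.05. With the replicate number as a block, 8 members had an unadjusted p under 0.05, 2 higher and 6 lower, beside 10.9% of all genes (5.59% higher and 5.31% lower). They were the same 6 with Eif3f, which was higher, and Eef2kmt, which was lower. In edgeR the unadjusted p of Eif3f was 0.0193 with the block and 0.163 without it, and that of Eef2kmt 0.0293 and 0.053. In the edgeR fit used for the printed fold changes, which had no block, the smallest adjusted p of any member was 0.648. With the block it was 0.344.

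The log2 fold changes of PTZ over PBS ran between -0.79 and 0.78 over the 59 members, and 52 of them were smaller than 0.5 in size. Their median was -0.04, against 0.03 over all genes tested, with a median standard error (SE) of 0.25. A positive value was seen for 24 members and a negative one for 35, while 52.7% of all genes were positive. No member differed by as much as 1 log2 unit. In GENCODE M21 on GRCm38, the 6 members with an unadjusted p under 0.05 are Eif1 (ENSMUSG00000035530, chr11:100319885-100322096, plus strand), Eif1a (ENSMUSG00000057561, chr18:46597701-46616456, plus), Eif2b1 (ENSMUSG00000029388, chr5:124570213-124579131, minus), Eif3m (ENSMUSG00000027170, chr2:104999656-105017080, minus), Eef1akmt1 (ENSMUSG00000021951, chr14:57549597-57571612, minus) and Eef1akmt2 (ENSMUSG00000030960, chr7:132827457-132852673, minus).

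**Figure D1:**
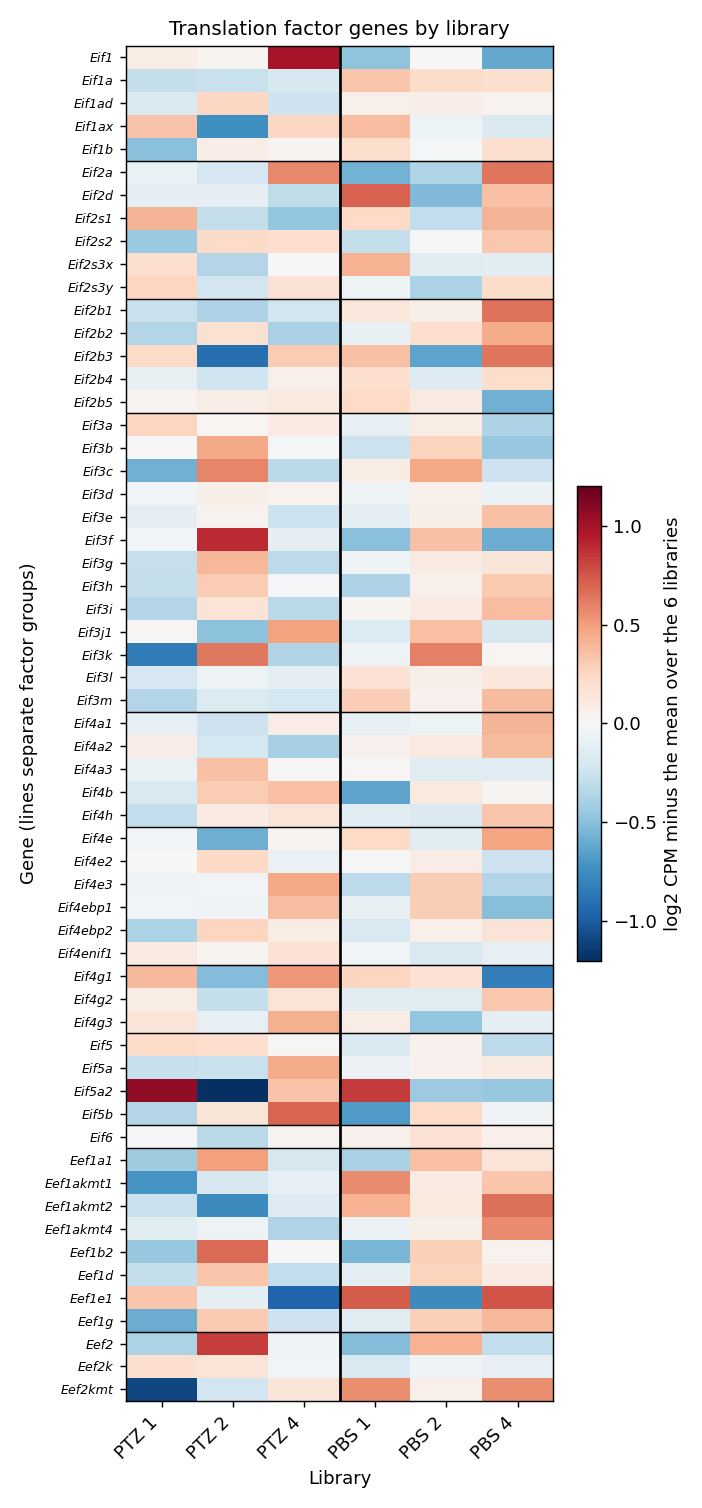
Level of each of the 59 tested translation factors in each library, as log2 CPM minus the mean of that gene over the 6 libraries, with PTZ libraries left of PBS libraries and members ordered by factor group. Columns PTZ 2 and PBS 2 are both above the gene means in Eef1a1, Eef1b2, Eef2, Eif3c, Eif3f and Eif3k, and the darkest cell of Eif1 is PTZ 4.

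Levels between genes were compared only per length of exon sequence, rescaled to the same sum in each library (TPM-like units). On this scale the highest member was Eef1a1, which carries charged tRNAs to the ribosome, at 1009 ± 106 in the PTZ libraries and 1001 ± 155 in the PBS libraries (SD, n = 3 each). Eef2, the translocation factor, had 804 ± 170.2 in the PTZ libraries and 626 ± 153 in the PBS libraries on the same scale. Eif3k, a small accessory subunit of eIF3, stood at 614 ± 184 in PTZ and 726 ± 113 in PBS. These 3 levels overlapped between the groups.

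**Figure D2:**
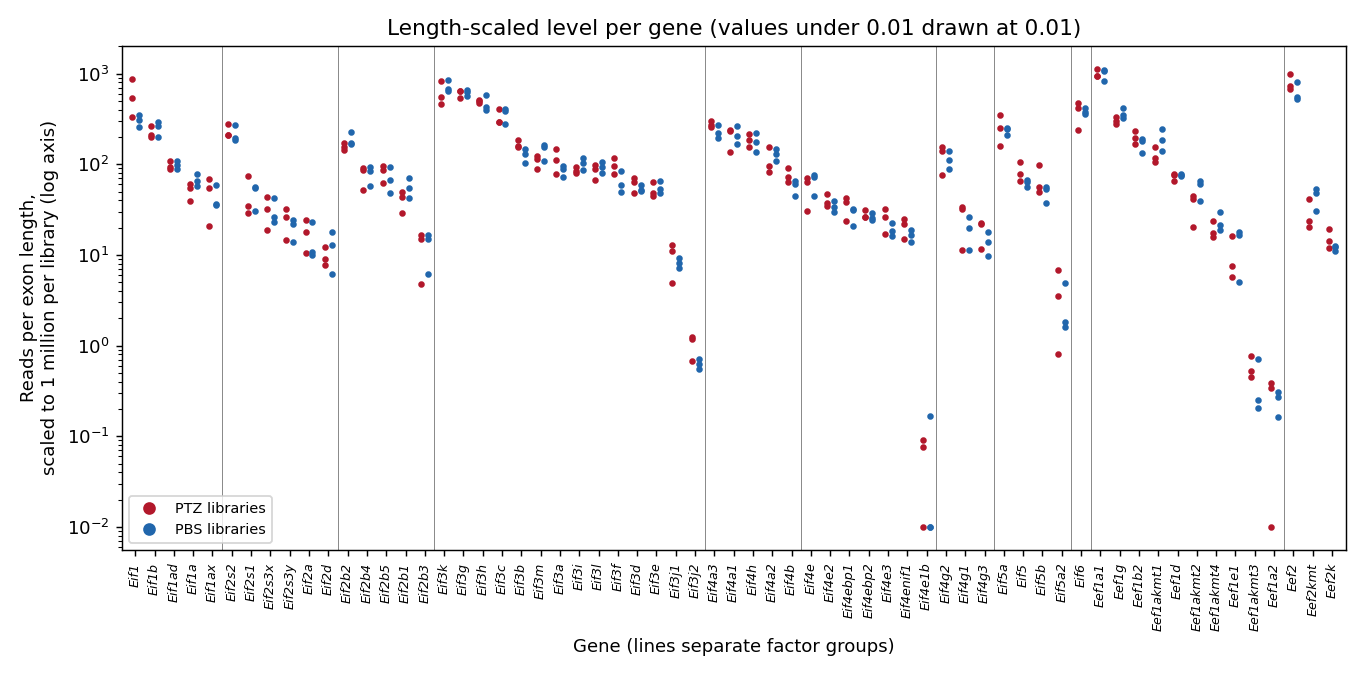
Level of each translation factor per exon length, in TPM-like units on a log axis, with 1 point per library, PTZ points left of PBS points and values under 0.01 drawn at 0.01. Eef1a1, Eef2 and the eIF3 subunit Eif3k lie near the top, Eef1a2, Eef1akmt3 and Eif4e1b lie at the bottom, and most PTZ and PBS points of a gene overlap.

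The neuron and muscle form Eef1a2 was almost unread. It had 3, 4 and 0 reads in PTZ libraries 1, 2 and 4, beside 9967, 13909 and 13769 reads of Eef1a1. In PBS libraries 1, 2 and 4 it had 2, 3 and 3 reads, beside 12038, 12745 and 14443 reads of Eef1a1. Its share of the reads of both genes was thus at most 0.0301% in any library, with a Wilson 95% interval of 0.0102% to 0.0884% there. The 10 neuron markers summed to 270.2, 473 and 270.4 CPM in the PTZ libraries, against 291, 467 and 278 CPM in the PBS libraries, with 3 of them (Slc17a7, Gad2 and Tubb3) under 1 CPM and 7 tested. Such intervals cover counting error only. Eif4e1b, a form of eIF4E known from oocytes, had no more than 0.151 CPM in any library, and Eif4ebp3 had no read in any library. Another gene on the same strand covers 67.3% of the exon bases of Eif4ebp3.

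Eif1, which keeps the scanning ribosome from stopping at the wrong codon, was the member with the largest positive difference. It had 355, 342 and 662 CPM in the PTZ libraries, against 239, 335 and 218 CPM in the PBS libraries. The groups did not overlap, but PTZ 2 exceeded PBS 2 by only a few CPM, and PTZ 4 stood far above the other libraries. The means were 453 ± 181 CPM in PTZ and 264 ± 62.6 CPM in PBS (SD, n = 3 each), a log2 fold change of 0.78 (SE 0.31), or 0.93 without PTZ 1 and 0.40 without PTZ 4. In edgeR its unadjusted p was 0.031 and its adjusted p 0.684.
The 250 bases before its RefSeq start (GRCm38, chromosome 11, plus strand, chr11:100319699-100319948) are shown because Eif1 was the highest member by fold change. They hold 1 match, in capitals, to TGANTCA, the letters to which AP-1 factors are known to bind, a sequence read here on both strands.
Eif1: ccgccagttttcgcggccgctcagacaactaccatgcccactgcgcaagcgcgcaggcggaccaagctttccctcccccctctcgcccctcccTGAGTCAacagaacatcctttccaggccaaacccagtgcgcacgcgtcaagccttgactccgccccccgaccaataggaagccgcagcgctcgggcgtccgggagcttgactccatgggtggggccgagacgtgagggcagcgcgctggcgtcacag
A match is a description of the letters and not a binding site. The 300 bases from 250 before to 50 after the start held TGANTCA in 4 of the 48 members found in the RefSeq promoter table (Eif1, Eif3f, Eif3j1 and Eif3l), or 8.3%, against 9.0% of all 27025 promoters and 6.3% of the 9776 of tested coding genes.

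Of the other members of the Eif1 group, Eif1a, a form of eIF1A that helps the small subunit open for scanning, had 78.8, 79.5 and 83.6 CPM in the PTZ libraries and 120.5, 112 and 109 CPM in the PBS libraries. Every PTZ library lay below every PBS library. The log2 fold change was -0.50 (SE 0.19), with an unadjusted p of 0.0242 in edgeR, and -0.48 without PTZ 1. Its near-identical X-linked copy Eif1ax had 113, 53.5 and 106 CPM in the PTZ libraries and 115, 85.4 and 78.9 CPM in the PBS libraries, which overlapped. Reads of these 2 genes may be divided unevenly by the authors' counting, so both values are uncertain.

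The eIF2 complex, which carries the initiator tRNA, overlapped between the groups in every subunit. Eif2s1, the alpha subunit that stress kinases phosphorylate, had 113, 69.7 and 61.8 CPM in the PTZ libraries, against 100.2, 69.1 and 112 CPM in the PBS libraries. Eif2s2, the beta subunit, had 436, 696 and 683 CPM in the PTZ libraries, against 485, 582 and 741 CPM in the PBS libraries. Both overlapped between the groups.
The gamma subunit comes from an X-linked and a Y-linked gene. Eif2s3x had 51.4, 34.9 and 44.9 CPM in the PTZ libraries and 59.8, 40.3 and 41.0 CPM in the PBS libraries. Eif2s3y had 41.6, 29.8 and 39.4 CPM in the PTZ libraries and 33.5, 26.8 and 40.7 CPM in the PBS libraries. Both ranges overlapped, and the similarity of the pair makes the split of reads between them uncertain. The Eif2 group of 6 members also holds Eif2a and Eif2d, which are not subunits of this complex. Log2 fold changes over the 6 lay between -0.44 (Eif2d) and 0.14, and the lowest of a subunit was -0.21 (Eif2s1). Without PTZ 1, 3 of the 6 were positive (Eif2a, Eif2s2 and Eif2s3y).

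The eIF2B complex, which recharges eIF2 with GTP, has 5 subunits, and 1 of them reached an unadjusted p under 0.05 and none an adjusted one. Their sums, which were not tested, were 323, 341 and 336 CPM in the PTZ libraries, against 386, 365 and 434 CPM in the PBS libraries. No PTZ library reached the lowest PBS library, although a sum scaled by library totals alone overlapped between the groups (366.6, 294.1 and 348.4 CPM in PTZ, against 414.2, 332.8 and 428.9 CPM in PBS). Of the subunits, Eif2b1 (alpha, which senses phosphorylated eIF2) stood out with 39.7, 36.9 and 41.1 CPM in the PTZ libraries and 52.5, 50.1 and 74.8 CPM in the PBS libraries. All 3 PTZ values lay below all 3 PBS values, with a log2 fold change of -0.59 (SE 0.24), an unadjusted p of 0.031 and an adjusted p of 0.684 in edgeR, and its fold change was -0.42 without PBS 4.
Eif2b2 (beta) had 99.99, 144 and 97.4 CPM in the PTZ libraries and 119.8, 146 and 174 CPM in the PBS libraries, and overlapped. The catalytic subunit Eif2b5 (epsilon) had 76.7, 79.2 and 81.4 CPM in the PTZ libraries, against 88.6, 80.9 and 50.5 CPM in the PBS libraries. Its fold change had the opposite sign to that of Eif2b1 (0.11, SE 0.24), with PBS 4 the lowest library.

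The eIF3 complex, the scaffold on the small subunit, had 13 of its 14 members tested, and their log2 fold changes ran between -0.49 and 0.51 around a median of -0.09. Eif3m, one of its PCI-domain subunits, had 98.7, 112 and 108 CPM in the PTZ libraries, against 154, 130.4 and 164 CPM in the PBS libraries. Those groups did not overlap. The log2 fold change was -0.49 (SE 0.20), with an unadjusted p of 0.0319 in edgeR, and -0.44 without PTZ 1.
Eif3l, another PCI-domain subunit, was also lower in every PTZ library, at 109.7, 120.4 and 117 CPM, than in the PBS libraries, at 142, 132 and 137 CPM, and its log2 fold change was smaller (-0.25, SE 0.19). Eif3k, the partner of Eif3l, overlapped between the groups and had 391, 1084 and 544 CPM in the PTZ libraries and 668, 1059.6 and 708 CPM in the PBS libraries. PTZ 2 and PBS 2 were its highest libraries. Its log2 fold change was -0.27 with all libraries, 0.01 without PTZ 1 and -0.83 without PTZ 2, where its unadjusted p was 0.0187 in edgeR.

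Among the cap-binding and helicase factors, only Eif4enif1 had groups that did not overlap. This transporter of eIF4E, also found in processing bodies, had 48.7, 46.7 and 51.3 CPM in the PTZ libraries and 44.7, 40.2 and 42.6 CPM in the PBS libraries, without overlap, yet its log2 fold change of 0.20 was no larger than its SE of 0.21. Eif4e, the cap-binding protein, had 132, 90.1 and 139 CPM in the PTZ libraries, against 159, 124 and 188 CPM in the PBS libraries. PTZ 2 and PBS 2 were the lowest of each group and the groups overlapped.
The mTOR-controlled inhibitors of eIF4E overlapped as well. Eif4ebp1 had 26.0, 25.7 and 34.4 CPM in the PTZ libraries and 25.0, 32.5 and 18.7 CPM in the PBS libraries. Eif4ebp2, the form most used in brain, had 47.1, 73.5 and 65.3 CPM in the PTZ libraries and 53.8, 63.9 and 68.2 CPM in the PBS libraries.
The scaffold Eif4g1 had 77.1, 41.0 and 84.4 CPM in the PTZ libraries, against 70.3, 66.1 and 33.3 CPM in the PBS libraries. Eif4g2, a relative that lacks the eIF4E-binding part, had 489, 379 and 513 CPM in the PTZ libraries, against 419, 416 and 578 CPM in the PBS libraries. Neither separated the groups. Eif4h, a cofactor of the helicase, had 323, 424 and 441 CPM in the PTZ libraries and 362, 349.9 and 497 CPM in the PBS libraries, which overlapped too.

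The RNA helicase eIF4A comes from 2 genes of differing cell type use. Eif4a1 had 324, 292 and 369.5 CPM in the PTZ libraries, against 325, 331 and 460.1 CPM in the PBS libraries. Eif4a2 had 259, 213 and 187 CPM in the PTZ libraries, against 254, 264 and 319 CPM in the PBS libraries. The share of Eif4a2 in the reads of both needs no scaling between libraries and was 44.4%, 42.2% and 33.6% in the PTZ libraries and 43.9%, 44.4% and 40.9% in the PBS libraries. PTZ 4 had the lowest share and PBS 4 the next lowest, so the libraries numbered 4 were the lowest of each group. The means differed by -3.03 percentage points, with a 2-sided exact permutation p of 0.7, where 0.1 is the smallest that 3 against 3 allows. That test did not pair libraries of equal number. Without PTZ 4 the difference was 0.213 points. Eif4a2 shares 13.3% of its exon bases with other genes, and the labels do not say whether the counting used strand.

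In the eIF5 group, Eif5a, which carries hypusine and helps stalled ribosomes, had 185, 186 and 305 CPM in the PTZ libraries, against 214, 232 and 242 CPM in the PBS libraries. Its close copy Eif5a2 was low, at 10.6, 1.99 and 6.45 CPM in the PTZ libraries and 9.12, 3.75 and 3.70 CPM in the PBS libraries, and its log2 fold change changed sign when PTZ 1 was left out (0.20 with it, -0.38 without). Both genes overlapped between the groups. Eif6, which keeps the ribosomal subunits apart, had 399.6, 317 and 406 CPM in the PTZ libraries, against 413, 447 and 416 CPM in the PBS libraries. The ranges did not overlap, by a gap of under 10 CPM, and the log2 fold change was -0.18 (SE 0.22).

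The eEF1 delivery complex did not separate the groups. Eef1a1 had 729.6, 1381 and 862 CPM in the PTZ libraries, against 752, 1258 and 1092 CPM in the PBS libraries. Its exchange factors Eef1b2 and Eef1d were similar: Eef1b2 had 131, 287 and 179 CPM in the PTZ libraries and 123, 219 and 185 CPM in the PBS libraries. Eef1d had 157, 240.3 and 156 CPM in the PTZ libraries and 177, 229.7 and 205 CPM in the PBS libraries.
In each of these 3 genes PTZ 2 and PBS 2 were the highest libraries. Eef1g, the structural subunit, had 226, 422 and 286 CPM in the PTZ libraries, against 307, 416 and 445 CPM in the PBS libraries, and overlapped. Eef1e1, which sits in the multi-tRNA-synthetase complex in spite of its symbol, had 16.2, 12.0 and 6.70 CPM in the PTZ libraries and 21.4, 7.60 and 21.8 CPM in the PBS libraries, with PBS 2 below all but PTZ 4.

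A pair of the methyltransferases that modify eEF1A had the lowest p-values of all members. Eef1akmt2 had 24.7, 17.5 and 26.7 CPM in the PTZ libraries, against 39.7, 32.2 and 47.1 CPM in the PBS libraries. Every PTZ library was below every PBS library, and the log2 fold change of -0.79 (SE 0.27) was the most negative of the members, with an unadjusted p of 0.0163 in edgeR. Eef1akmt1 had 34.8, 49.7 and 53.3 CPM in the PTZ libraries, against 84.4, 60.8 and 71.5 CPM in the PBS libraries. Those also stood apart, with a log2 fold change of -0.65 (SE 0.24) and an unadjusted p of 0.0229 in edgeR. Both had an adjusted p of 0.648.
Without PTZ 1 the log2 fold change was -0.84 for Eef1akmt2 and -0.49 for Eef1akmt1. Eef2kmt, which methylates eEF2, had 16.8, 30.8 and 39.9 CPM in the PTZ libraries and 52.8, 37.6 and 52.8 CPM in the PBS libraries. PTZ 1 was its lowest library, and PTZ 4 exceeded PBS 2, so the groups overlapped, while PTZ was lower in all 3 pairs of equal number. In edgeR its unadjusted p was 0.053, and 0.0293 with the replicate block. Its log2 fold change was -0.71 with PTZ 1 and -0.43 without it.

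Eef2 had 705, 1625 and 879.9 CPM in the PTZ libraries, against 638, 1223 and 745 CPM in the PBS libraries. PTZ 2 and PBS 2 were its highest libraries, and the difference between these and the others of the same group was larger than that between the groups. Eef2k, the calcium-dependent kinase that stops eEF2, had 44.7, 43.5 and 38.1 CPM in the PTZ libraries, against 34.4, 37.6 and 36.4 CPM in the PBS libraries. All PTZ values exceeded all PBS values, by under 1 CPM at the nearest pair. The log2 fold change was 0.22 (SE 0.22), with an unadjusted p of 0.341 in edgeR.

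**Figure D3:**
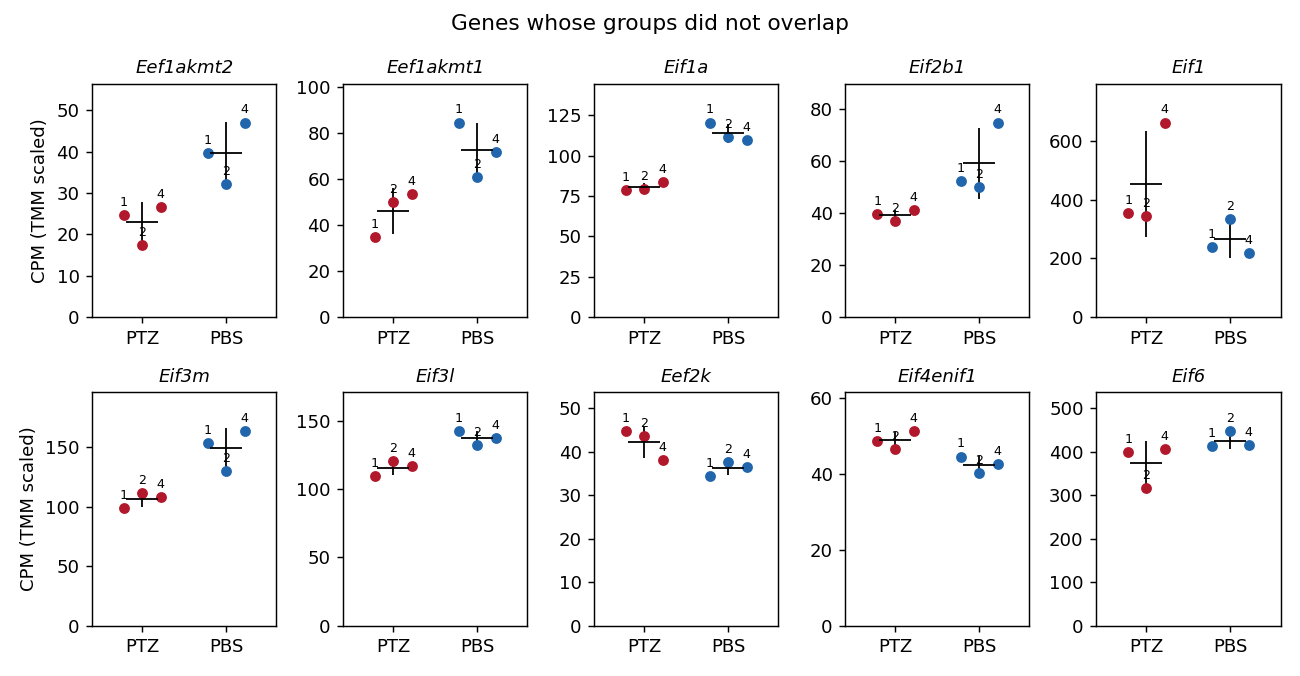
CPM in each library for the 10 translation factors whose PTZ libraries, left, all lie above or all lie below the PBS libraries, right, with the group mean and SD as lines and the library number beside each point. Eif1, Eef2k and Eif4enif1 are higher in PTZ, and Eef1akmt2, Eef1akmt1, Eif1a, Eif2b1, Eif3m, Eif3l and Eif6 lower.

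Counted together, 10 of the 59 members did not overlap between the groups, 3 higher and 7 lower in PTZ, where 14.3% of all genes tested did not overlap (7.3% higher and 7.04% lower). Scaled by library totals, 2 were higher (Eef2k and Eif5) and 7 lower, beside 11.8% of all genes (6.17% higher and 5.61% lower), and with the authors' scaling 1 was higher (Eef2k) and 11 lower, beside 13.9% (5.33% higher and 8.6% lower). Eef2k kept its place above PBS under all 3 scalings, and Eef1akmt1, Eef1akmt2, Eif1a, Eif2b1 and Eif3m theirs below PBS. Eif1, Eif4enif1, Eif3l and Eif6 did not under library totals. Higher in PTZ in all 3 pairs of equal number were 11 members, beside 18.5% of all genes, and lower in all 3 pairs 14, beside 16.6%.

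**Figure D4:**
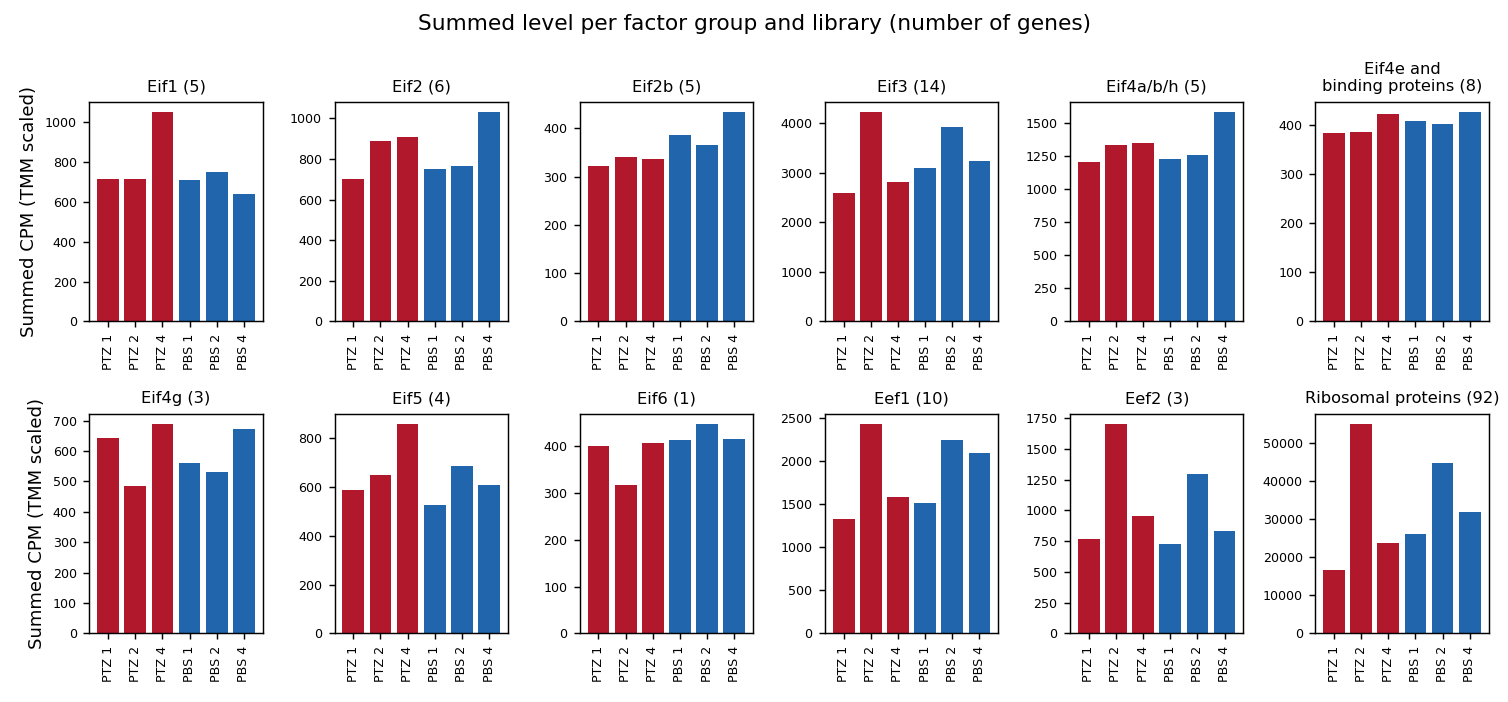
Summed CPM of each factor group and of the ribosomal protein genes in each library, as bars from 0, PTZ left of PBS, with the number of genes in each title. The Eif2b sums (323, 341 and 336 CPM in PTZ, against 386, 365 and 434 CPM in PBS) and the single member Eif6 are the 2 of 11 groups without overlap. Both overlap when scaled by library totals, and 14.3% of all single genes tested did not overlap.

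The libraries numbered 2, PTZ 2 and PBS 2, stood above the other 4 in 11 members: Eef1a1, Eef1b2, Eef1d, Eef2, Eif1ad, Eif3b, Eif3c, Eif3d, Eif3f, Eif3k and Eif4e2, a list read off after the values were seen. This was 11 of 59, beside 11.3% of all genes tested. They stood below the other 4 in 6 members (Eif2b3, Eif2b4, Eif2s3x, Eif2s3y, Eif4e and Eif4g2), beside 10.2% of all genes. Among the 86 cytosolic ribosomal protein genes tested, taken by symbol, 78 were above in both. The summed ribosomal proteins were 16729.8, 55045 and 23805 CPM in the PTZ libraries, against 26142, 44811 and 31841 CPM in the PBS libraries. The 5 red cell markers were also highest in these 2 libraries, with 5788, 11683 and 6213 CPM in the PTZ libraries, against 6577, 10852 and 7338 CPM in the PBS libraries. So were the summed endothelial markers and the summed neuron markers (473 CPM in PTZ 2 and 467 CPM in PBS 2, against 270 to 291 CPM elsewhere). The other marker lists were not. The part of these markers in the pattern was not tested.
Ribosomal proteins and several elongation factors are known, mainly from human cells, for a pyrimidine tract that starts with C at the first base of the mRNA (the TOP motif), through which mTOR controls them together. A tract, counted as C followed by at least 6 bases that are C or T between 10 before and 20 after the RefSeq start, was found in 13 of 48 members, or 27.1%, against 15.6% of all promoters, 17.0% of those of tested coding genes and 30 of 66 ribosomal protein genes, or 45.5%. The 10 members known as TOP mRNAs summed to 2913, 5119 and 3364 CPM in the PTZ libraries and 2808, 4401 and 3661 CPM in the PBS libraries, with 5 positive fold changes of 10 and a median of 0.09. Of these 10, 6 had a promoter entry and 3 of the 6 held a tract as counted (Eef1a1, Eif3f and Eif4b); the RefSeq start of Eef1a1 is doubtful, and its window is not printed. 
The 30 bases at the start are printed for 4 members known as TOP mRNAs or high in the libraries numbered 2, followed by 3 members without the pattern, with the tract in capitals (GRCm38, RefSeq starts, 5′ to 3′ on the strand of the gene).
Eif3f, chr7:108934405-108934434, plus strand: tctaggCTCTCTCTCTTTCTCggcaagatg
Eif3k, chr7:28981869-28981898, minus strand: aaccggcgctggtgctgaaagcgCCTTTCC
Eif4b, chr15:102073763-102073792, plus strand: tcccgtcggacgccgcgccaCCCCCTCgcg
Eef2, chr10:81176621-81176650, plus strand: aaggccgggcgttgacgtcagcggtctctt
Eif1, chr11:100319939-100319968, plus strand: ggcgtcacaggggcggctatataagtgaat
Eif3m, chr2:105017008-105017037, minus strand: cggtcggcgtgtttctggatcggagcgtct
Eif2b1, chr5:124579112-124579141, minus strand: tcgatttccggcgccgacgagtgacgccac
The tract spans the RefSeq start in Eif3f and begins after it in Eif4b and Eif3k. The window of Eef2 holds none as counted, but it ends in a run of C and T whose length past the edge was not read. The printed windows are picked examples. Among searched members high in both libraries numbered 2, only Eef1a1, Eif3f and Eif3k held a tract as counted. Among those low in both, Eif2s3x, Eif2s3y and Eif4e held one. The RefSeq start may not be the one used in these cells, and the outermost GENCODE starts of Eif1 and Eif3m lie upstream of it. That of Eif3k (28981864) lies downstream of its whole printed window, so its tract follows the start by RefSeq only.

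Leaving out PTZ 1 moved 40 of the 59 fold changes up, where 51.8% of all genes moved up, and 9 changed sign, 8 of them to positive. The median of the members became 0.02 with 31 positive, beside 51.9% of all genes. At an unadjusted p under 0.05 there were then 2 members, Eif1 higher and Eef1akmt2 lower, beside 5.93% of all genes (2.76% higher and 3.17% lower), and 12 members did not overlap, 4 higher (11.5% of all genes) and 8 lower (11.3%). The smallest exact p of 2 against 3 libraries is 0.2. Eif1, Eif1a, Eif2b1, Eif3m, Eef1akmt1 and Eef1akmt2 all had log2 fold changes past 0.4 in size without PTZ 1. The ribosomal proteins had 17 of 86 positive values with PTZ 1 and 75 without it.

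**Figure D5:**
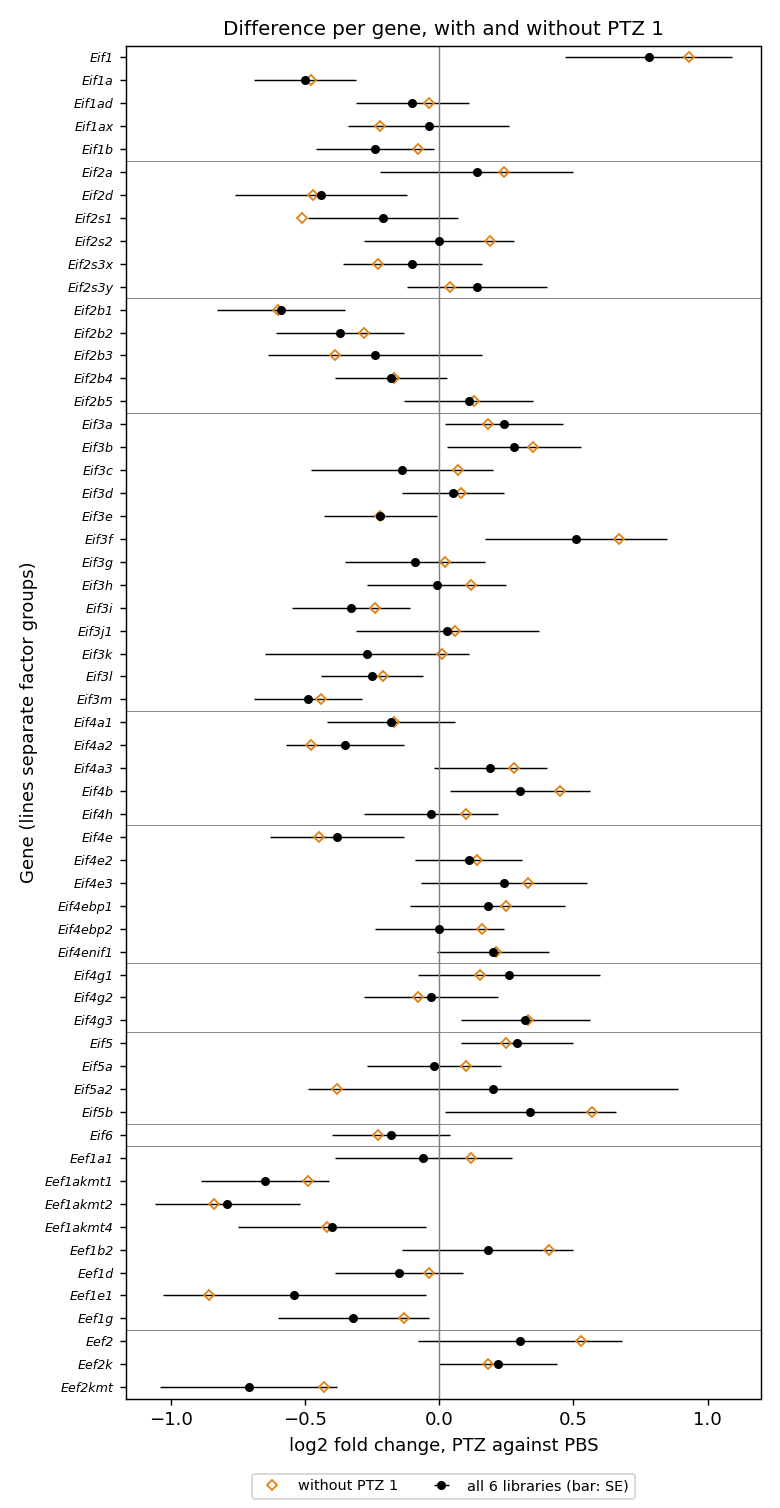
Log2 fold change of PTZ over PBS for the 59 tested translation factors: filled circles with bars of 1 SE use all 6 libraries, and open diamonds leave out PTZ 1. Eif1 lies farthest right under both (0.78 and 0.93), and Eef1akmt2 lies among the farthest left under both (-0.79 and -0.84).

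Genes that act with these factors were taken from lists of the pathway, and none of them passed an adjusted p of 0.05 in edgeR. Their counts stand beside 52.7% of all genes with a positive value and 3.83% higher at an unadjusted p under 0.05. Of the eIF2 alpha kinases, phosphatases and their effectors, 12 were tested, 9 positive, with a median of 0.30. The 4 kinases overlapped between the groups, with log2 fold changes of 0.63 (SE 0.53) for Eif2ak3 (PERK), 0.53 (SE 0.45) for Eif2ak4 (GCN2), 0.18 (SE 0.27) for Eif2ak2 (PKR) and -0.18 (SE 0.28) for Eif2ak1 (HRI). Atf4, the transcription factor whose translation rises when eIF2 alpha is phosphorylated, had 187, 178 and 208 CPM in the PTZ libraries, against 120.1, 126 and 133 CPM in the PBS libraries. These groups did not overlap, with a log2 fold change of 0.60 (SE 0.19), an unadjusted p of 0.0113 and an adjusted p of 0.636 in edgeR. Ppp1ca, a catalytic subunit of the phosphatase, had 275, 386 and 415 CPM in the PTZ libraries and 450.0, 514 and 605 CPM in the PBS libraries, without overlap. Its log2 fold change was -0.54 (SE 0.25), with an unadjusted p of 0.0562 and an adjusted p of 0.7 in edgeR. The other phosphatase genes listed were positive: Ppp1r15a at 0.73 (SE 0.36), Ppp1r15b at 0.42 (SE 0.27), Ppp1cc at 0.41 (SE 0.22) and Ppp1cb at 0.17 (SE 0.23).
Of the 20 genes that feed mTOR and MAP kinase signals to these factors, 13 were positive, with a median of 0.09, and 3 were higher at an unadjusted p under 0.05, where 3.83% of all genes were. Ddit4, an inhibitor of mTOR, had 54.8, 145 and 111 CPM in the PTZ libraries, against 25.7, 38.6 and 22.8 CPM in the PBS libraries. Its log2 fold change was 1.83 (SE 0.36), with an unadjusted p of 0.000423 and an adjusted p of 0.407 in edgeR. Sesn1, a sestrin that holds mTOR down when leucine is short, had 242, 210.4 and 287 CPM in the PTZ libraries and 118, 93.2 and 146 CPM in the PBS libraries, a log2 fold change of 1.05 (SE 0.24). Both stood apart between the groups.
Of the 17 initiation and recycling partners, 11 were positive, with a median of 0.19. The helicase Ddx3x, which opens structured leaders, had 374, 306 and 328 CPM in the PTZ libraries, against 247, 227 and 194 CPM in the PBS libraries, a log2 fold change of 0.60 (SE 0.22). The m6A reader Ythdf1 had 79.9, 68.3 and 64.2 CPM in the PTZ libraries, against 56.5, 43.3 and 45.3 CPM in the PBS libraries, a log2 fold change of 0.55 (SE 0.22). The 9 termination and rescue genes had 7 positive values and a median of 0.27, and the 7 further TOP genes had 5 and 0.14. The hypusine and diphthamide enzymes, listed with Eefsec, Secisbp2 and Mettl13 (11 genes), had 6 and 0.04. Of these 11, only Secisbp2 had an unadjusted p under 0.05 in edgeR (0.0364, log2 fold change 0.70, SE 0.29). Without PTZ 1 the medians were 0.16 (eIF2 alpha list), 0.09 (mTOR and MAP kinase) and 0.20 (initiation and recycling partners). They were 0.14 for termination and rescue, 0.39 for the hypusine and diphthamide list and 0.19 for the further TOP genes.

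Further motif letters were searched in the same promoters. CACGTG, the E-box to which MYC family and clock factors bind, occurred in 13 of 48 members, or 27.1%, against 8.1% of all promoters and 11.5% of those of tested coding genes. CGGAAG, the core letters of ETS family sites, occurred in 27 of 48, or 56.2%, against 18.8% and 34.4%. TGACGTCA, the CREB site, occurred only in Eef2 among the 48 (within its start window printed above), or 2.1%, against 2.0% and 3.6%, and TATAAA in 5, or 10.4%, against 15.7% and 8.9%. Both strands were searched, CACGTG, TGACGTCA and the pattern TGANTCA being the same on both, and no motif searched holds another.
The upstream sequences of a member with each are shown with the matches in capitals: Eef2 (GRCm38, plus strand, chr10:81176381-81176630) has CACGTG and TATAAA, and Eif3m (minus strand, chr2:105017028-105017277) has CGGAAG.
Eef2: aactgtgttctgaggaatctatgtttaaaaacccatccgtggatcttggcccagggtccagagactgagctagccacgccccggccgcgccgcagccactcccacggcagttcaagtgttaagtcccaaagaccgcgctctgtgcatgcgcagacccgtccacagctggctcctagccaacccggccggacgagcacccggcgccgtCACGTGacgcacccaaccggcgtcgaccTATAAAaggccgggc
Eif3m: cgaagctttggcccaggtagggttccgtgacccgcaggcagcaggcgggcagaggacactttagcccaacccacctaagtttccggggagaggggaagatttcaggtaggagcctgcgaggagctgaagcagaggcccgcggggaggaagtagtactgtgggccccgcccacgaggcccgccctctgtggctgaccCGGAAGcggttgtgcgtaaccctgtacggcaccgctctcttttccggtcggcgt
Eef2 had a log2 fold change of 0.30 (SE 0.38) and Eif3m of -0.49 (SE 0.20), and neither passed the adjusted test. A missing match says only that the letters are not in the window.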

How the data were processed

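RNA of brain endothelial cells was sequenced in 6 libraries. What the authors deposited were raw counts for each Ensembl gene and a normalised signal per library. Per the submitters' processing notes, CASAVA, TopHat2 2.1.1, HTSeq and edgeR were used with GRCm38. Annotation release, strand setting and any pooling are not stated there. The deposited signal came out as whole reads divided by a library factor in 100% of values (tolerance 0.01 reads), and served as an alternative scaling. Symbols, gene types and exon lengths came from GENCODE M21, which holds 53360 of the 53465 gene IDs. Rows that name no gene held 16.1% to 22.9% of the reads per library and stayed out of totals and tests.

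edgeR 4.0.16 in R 4.3.3 was run on the counts (minimum count 10, minimum total count 15, TMM factors 0.864 to 1.14, quasi-likelihood test, no block), with Benjamini-Hochberg adjustment over 13768 genes. Printed CPM use TMM-scaled library sizes. DESeq2 1.42.0, limma 3.58.1 (voom), other scalings and filters, each library left out and the replicate number as a block were alternatives. The common dispersion of 0.221 is a coefficient of variation of 0.47 between libraries. Libraries of one number deviated together (correlations 0.206, 0.266 and 0.263 for numbers 1, 2 and 4, against -0.165 to -0.1 for other pairs). By the limit of 0.1 the numbers thus pair the libraries. Each group was first centred on its own mean, which makes the other pairs negative when the equal-number pairs are positive. The negative values are therefore no separate evidence. The source of the pairing is not given in the labels. Replicates differed by more than counting noise (chi-square per degree of freedom 48.5 to 115).

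The members, the related gene lists and the tests were chosen with earlier results of these data known. Members were given with all libraries if highest in CPM in their group, among the 10 smallest p-values, without overlap between groups, among the 5 largest shifts without PTZ 1, or on a list of central factors. Related genes were shown for the smallest p of their list. Promoters came from RefSeq (GRCm38.p6) for 48 of 64 members, matched by symbol.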

Additional observations from a re-analysis of the deposited data

How the results depend on the processing

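No named translation factor passed an adjusted p of 0.05 under any of 14 other settings, and 19 of the 34 named and tested members never changed sign. The count over all genes was 76 with DESeq2, 1 with limma-voom, 121 without a filter and 0 to 8 with a library left out. Members at an unadjusted p under 0.05 numbered 2 with library totals, beside 5.77% of all genes. With a library left out they numbered 2 to 10, beside 4.64% to 11.1% of all genes. With the replicate number as a block they numbered 8, beside 10.9% of all genes, and the block changed no adjusted call. With a library left out, the member median ran between -0.14 and 0.03, and the Eif4a2 share difference between -5.21 and 0.213 points. The Eif2s2 fold change was -0.0024 with DESeq2 and with RLE size factors, -0.06 with the authors' scaling, -0.01 with limma-voom, -0.04 without a filter and -0.01 with the block. Under library totals, Eif4ebp2 was at 0.01, Eif4g2 at 0.02 and Eif5a at 0.02. With a library left out, log2 fold changes ran between -0.42 and 0.12 for Eef1a1, -0.22 and 0.41 for Eef1b2, -0.17 and 0.60 for Eef2, -0.13 and 0.27 for Eif2b5, -0.14 and 0.19 for Eif2s2, -0.24 and 0.11 for Eif2s3x, -0.04 and 0.26 for Eif2s3y, -0.83 and 0.01 for Eif3k, -0.03 and 0.36 for Eif4ebp1, -0.18 and 0.16 for Eif4ebp2, -0.05 and 0.47 for Eif4g1, -0.15 and 0.11 for Eif4g2, -0.15 and 0.12 for Eif4h, -0.31 and 0.10 for Eif5a, and -0.38 and 0.77 for Eif5a2. The cause was not tested. Of 96 group sums under other settings, 0 moved beyond the spread between libraries. With 3 libraries a group and a median SE of 0.25, small differences between PTZ and PBS could not be detected, and low genes such as Eif5a2 (SE 0.69) rest on few reads.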

Other observations

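Mitochondria have translation factors of their own, and 10 of them, listed after the files were seen, were read from the same edgeR fit. None passed an adjusted p of 0.05, 4 were positive and the median log2 fold change was -0.09. Mtif3, the mitochondrial initiation factor 3, had 13.4, 20.5 and 16.3 CPM in the PTZ libraries, against 38.4, 29.1 and 40.4 CPM in the PBS libraries. Every PTZ library lay below every PBS library, with a log2 fold change of -1.11 (SE 0.28), an unadjusted p of 0.00277 and an adjusted p of 0.516 in edgeR. Mtrf1, a mitochondrial release factor, had 0.878, 5.96 and 4.94 CPM in the PTZ libraries, against 13.1, 8.49 and 22.1 CPM in the PBS libraries. These groups did not overlap either, and its log2 fold change was -1.89 (SE 0.68), with an unadjusted p of 0.0182 in edgeR. Both genes were picked from the 10 for their values.

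Beside the 64 members, 9 non-coding genes carry such symbols, most of them processed pseudogenes. Eif4a-ps4 had 113, 77 and 109 reads in PTZ libraries 1, 2 and 4 and 87, 61 and 116 reads in PBS libraries 1, 2 and 4, or 563 in all. The next was Eif5al3-ps with 24 reads in all. Reads of pseudogenes and of the genes they copy can be divided unevenly by the counting.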
